A study of Tribolium castaneum with 17 samples.

Results

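A group of 120 gene models of the red flour beetle, *Tribolium castaneum*, out of 12302 measured, reached 5 CPM or more in each ovary library and stayed under 5 CPM in every other library. The genes were chosen on these values alone, with 4 named models left out of the choice. No model outside the group met the same values. The ovary level, and any difference between ovary and another sample, was therefore fixed by the choice of genes and is described here without a test. CPM, the unit of all levels given here, is the read count of a gene model relative to a fixed total of reads per library, scaled by the authors with factors that adjust for the composition of each library (TMM).

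Poly(A) RNA was sequenced from 17 libraries of wild type beetles, in 6 groups. Ovary (libraries S13, S14 and S15), testis (S16 and S17), female carcass (S7, S8 and S9) and male carcass (S10, S11 and S12) came from adults 4 days after eclosion, with the tissue of 30 beetles pooled in each library. Embryo (6-11 hr) (S4, S5 and S6) and embryo (0-5 hr) (S1, S2 and S3) libraries each held a pool of 80 to 100 embryos, laid by adults older than those dissected. The paper's abstract names the ovary as that of virgin females, whereas the embryos came from egg-laying adults. A carcass is the adult body after removal of the gonads, so it mixes many somatic tissues, and no group carried a mutation or a treatment. Replicates were collected as independent samples, and between 18664366 and 34847471 reads per library fell in gene models, so that 1 read was worth 0.0217 to 0.0595 CPM. Counting error is thus large for values far under 1 CPM.

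The beetle ovary is telotrophic. Nurse cells at the tip of each ovariole supply the growing oocytes with RNA and protein through cords, and somatic follicle cells surround the oocytes and build the egg shell. Part of the RNA made in the ovary is stored in the egg and directs the first steps of embryo development, whereas other ovary RNA serves the nurse cells, the follicle cells or the muscle sheath and does not reach the embryo.

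The 120 genes are known here by their TC identifiers only. None of them was matched in the RefSeq gene table, and none is among the 22 identifiers that the study names, so no function, sequence or position can be given for them. In whole tissues, fewer cells of a type and less RNA per cell cannot be told apart.

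The name of the group, genes detected in ovary only, held for the threshold of 5 CPM and not for detection. All 120 genes had reads outside the ovary, 93 of them in every one of the 17 libraries. A level of 1 CPM or more in some library outside the ovary was reached by 112 genes, and 35 genes reached 4 CPM or more. Only 8 genes stayed under 1 CPM in all libraries other than ovary, and 26 stayed under 2 CPM. These 8 were TC016035, TC032932, TC010843, TC006225, TC013637, TC007823, TC000670 and TC032482, of which TC016035 had the highest ovary level, 13.1 CPM on average. The genes are called ovary genes below, in the sense of the rule.

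The threshold ran through a continuous range of values. On the ovary side, the lowest values of chosen genes were 5.01 CPM for TC032482 (S14), 5.03 CPM for TC005927 (S15) and 5.05 CPM for TC011153 (S14). On the other side, the highest values outside the ovary were 4.95 CPM for TC008471 (S7), 4.92 CPM for TC005165 (S8) and 4.88 CPM for TC016199 (S17). Models that just missed the rule included TC002639 and TC033921, each at 4.89 CPM in S13, and TC010887, at 4.84 CPM in S15. TC034708, TC008905 and TC002341 missed it through a library outside the ovary, at 5.05 CPM (S17), 5.06 CPM (S4) and 5.11 CPM (S17). A further count gave 57 models that were under 5 CPM in every library outside the ovary but also in at least 1 ovary library.

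Most of the ovary genes were expressed at a low level in ovary itself. Their mean over the 3 ovary libraries ran from 5.23 to 74.5 CPM, with a median of 9.37 CPM and quartiles of 7.63 and 13.1 CPM. Only 4 genes averaged 50 CPM or more and 17 averaged 20 CPM or more, whereas 71 were under 10 CPM. Together the 120 genes took 0.195 to 0.246% of the reads of an ovary library. In all, 9855 models were at 5 CPM or more in each of the 3 ovary libraries, and the 120 genes are part of that set.

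The distance between ovary and the highest other group differed widely between genes. The ovary mean was 4.61 times the highest other group mean at the median gene, from 1.27 times for TC016199 to 42.4 times for TC015038. The ratio was 20 or more in 12 genes, 10 to 20 in 19, 5 to 10 in 24, 2 to 5 in 53 and under 2 in 12. In the limma fit described below, 100 of the 120 genes passed as higher in ovary than in each of the other 5 groups, against 1.83% of all models tested, and nothing is read from this count because the rule used the same contrasts.

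**Figure D1:**
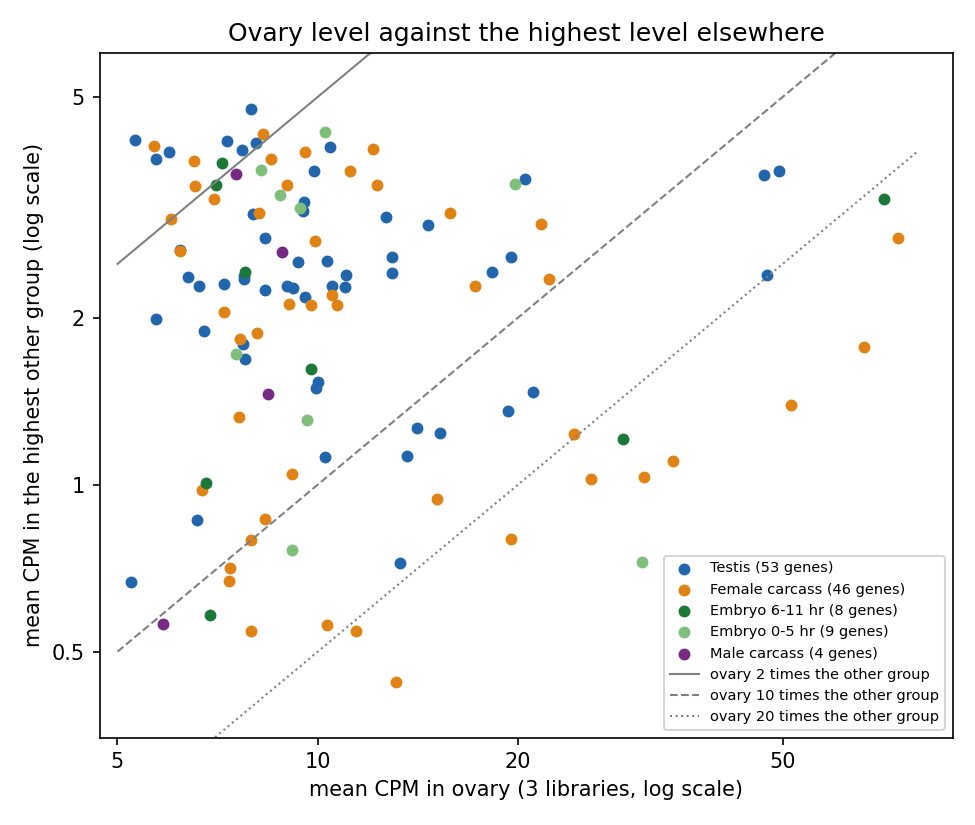
Mean CPM in ovary (x axis, log scale, 3 libraries) against mean CPM in the highest other group (y axis, log scale) for each of the 120 genes, colored by the group that was highest outside the ovary. The lines mark ratios of 2, 10 and 20, and genes with a high ovary level lie mostly beyond the ratio of 10 while 12 genes lie above the line for 2.

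Among the genes with a mean of 20 CPM or more, the highest were TC031240, TC010555, TC003437 and TC014653. TC031240 had 81.2, 40.02 and 102 CPM in ovary (S13, S14 and S15), against 3.26, 3.92 and 1.15 CPM in female carcass, 0.487, 0.892 and 0.870 CPM in male carcass and 1.00 and 1.38 CPM in testis, and no embryo library was over 0.135 CPM. Every ovary library was far above all others, and the ovary libraries differed among themselves by more than a factor of 2. TC010555 had 95.1, 54.2 and 63.5 CPM in ovary, against 3.31, 2.80 and 3.72 CPM in embryo (6-11 hr) and 2.17, 2.16 and 2.36 CPM in embryo (0-5 hr). This gene was the only one of the 4 with a level over 1 CPM in every embryo library, and its carcass and testis libraries were at 0.682 CPM or less apart from S7, at 4.19 CPM, and S17, at 1.95 CPM.

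TC003437 had 89.7, 66.8 and 42.1 CPM in ovary, against 4.13, 0.596 and 0.577 CPM in female carcass. TC014653 had 64.5, 56.1 and 33.9 CPM in ovary, against 3.97, 0 and 0.210 CPM in female carcass. In both genes 1 female carcass library, S7, stood above the other 2, and S8 had no read of TC014653. TC014977 had 53.9, 59.2 and 27.6 CPM in ovary, against 4.24 and 2.98 CPM in testis, and no read in any embryo (0-5 hr) library. Set against a floor of 3 reads over the embryo (0-5 hr) group, its ovary mean was at least 1590-fold higher. The same bound was at least 222-fold for TC011332 and at least 204-fold for TC011153, the other genes without a read in embryo (0-5 hr).

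TC032988 had 53.4, 40.8 and 54.0 CPM in ovary, against 2.53 and 4.82 CPM in testis, and TC031818 had 53.6, 40.8 and 47.5 CPM in ovary, against 0.647 and 4.13 CPM in testis. Both were more even over the ovary libraries than the 4 highest genes, and in both S17 was the highest library outside the ovary. TC015038, the gene with the largest ratio, had 41.4, 23.8 and 27.0 CPM in ovary, against 0.550, 0.916 and 0.712 CPM in embryo (0-5 hr), the highest other group by its mean. No library outside the ovary exceeded 1.14 CPM for this gene.

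The remaining genes with a mean of 20 CPM or more were TC000887 (34.2 CPM), TC014367 (30.9 CPM), TC032527 (28.7 CPM), TC000551 (25.7 CPM), TC031654 (24.3 CPM), TC011955 (22.2 CPM), TC010834 (21.6 CPM), TC009905 (21.1 CPM) and TC033241 (20.5 CPM). The next 3 by ovary mean were TC004682 (19.8 CPM), TC000879 (19.5 CPM) and TC032281 (19.5 CPM). Over these 12 genes the ratio of ovary to the highest other group ran from 5.68 for TC004682 to 31.1 for TC000887.

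**Figure D2:**
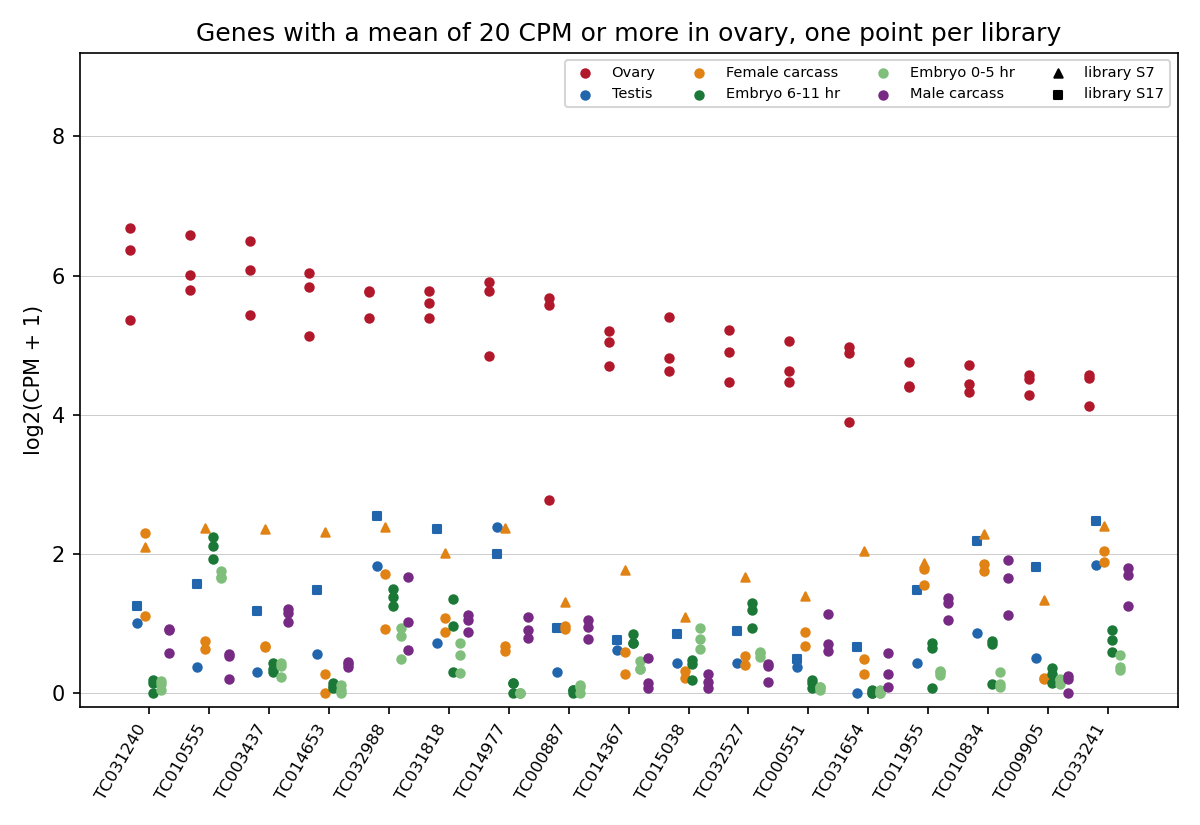
Level of the 17 genes with an ovary mean of 20 CPM or more, as log2(CPM + 1), with 1 point per library and colors for the 6 groups, and with library S7 of female carcass drawn as a triangle and library S17 of testis as a square. Ovary points lie above all others for every gene, TC000887 has 1 ovary point at 5.83 CPM far under the other 2, and S7 is above S8 and S9 in 16 of the 17 genes.

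The ovary libraries differed more in these genes than in most genes of the ovary. The coefficient of variation (the SD over the 3 ovary libraries as a percentage of their mean) had a median of 17.1% in the 120 genes, against 10.2% in the 9735 other models at 5 CPM or more in every ovary library. It was 10.9% in the 6961 of these whose ovary mean was no higher than that of the highest ovary gene. These are descriptions over genes of the same 3 libraries, and a low level by itself adds counting error. S15 was the highest of the ovary libraries in 62 of the 120 genes, or 51.7%, against 22.3% of the models detected in ovary. S14 was the lowest in 77 of the 120 genes, against 39.0% of all models.

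The spread was largest in 5 genes. TC000887 had 46.7, 50.2 and 5.83 CPM in S13, S14 and S15, a coefficient of variation of 72.0%. TC005096 had 7.18, 6.46 and 20.7 CPM, a coefficient of 70.0%. S15 was thus lowest in the first of these genes and highest in the second. TC005093 (10.3, 8.74 and 26.2 CPM), TC032281 (18.7, 7.53 and 32.4 CPM) and TC032937 (5.98, 5.12 and 13.1 CPM) were the other genes with a coefficient of 50% or more, and S15 was highest in all 3. At the other end, TC007126 had 7.65, 7.85 and 7.72 CPM, a coefficient of 1.34%, and TC034605 had 8.68, 8.68 and 9.01 CPM, a coefficient of 2.16%.

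**Figure D3:**
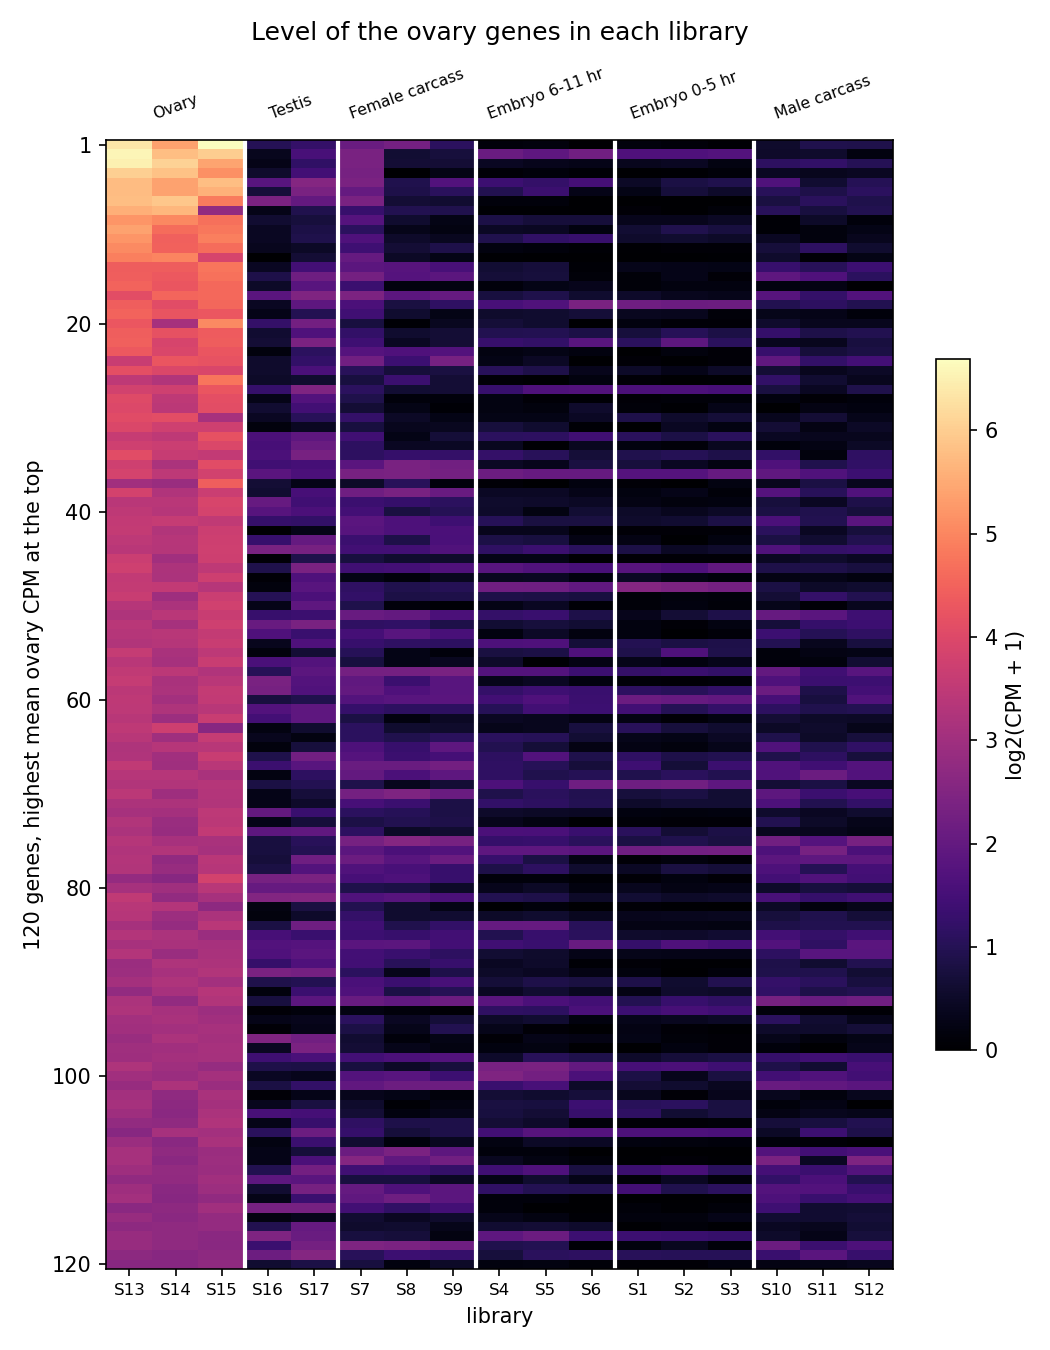
Level of the 120 ovary genes in each of the 17 libraries as log2(CPM + 1), with genes in rows ordered by mean ovary CPM and libraries in columns grouped by sample. The ovary columns are bright by the choice of genes, and outside them S17 of testis and S7 of female carcass are the lightest columns and the embryo (0-5 hr) columns the darkest.

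Outside the ovary, the genes were lowest in the early embryo and highest in testis and female carcass, on the authors' scale and with all libraries included. The level of a gene, as a percentage of its ovary mean, had a median of 12.7% in testis, 10.4% in female carcass, 4.94% in embryo (6-11 hr), 2.52% in embryo (0-5 hr) and 7.12% in male carcass. The median group means were 1.42, 1.30, 0.572, 0.286 and 0.840 CPM in the same order. Under 5% of the ovary mean lay 75 genes in embryo (0-5 hr) and 61 in embryo (6-11 hr), against 30 in testis, 35 in female carcass and 43 in male carcass. That all groups lay below ovary was fixed by the rule. In embryo (0-5 hr) 25 genes averaged 1 CPM or more.

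The group that was highest outside the ovary was testis for 53 genes, female carcass for 46, embryo (0-5 hr) for 9, embryo (6-11 hr) for 8 and male carcass for 4. Summed over the 120 genes, the level was 144.6 and 248.0 CPM in testis (S16 and S17) and 229.5, 160.8 and 160.8 CPM in female carcass (S7, S8 and S9). It was 93.8 to 113 CPM in embryo (6-11 hr), 77.0 to 80.4 CPM in embryo (0-5 hr) and 112.4 to 145.3 CPM in male carcass, against 1474 to 1795 CPM in ovary. S16 lay within the range of male carcass, and S17 was above every library other than ovary. These sums depend on the authors' scaling. As a share of reads, male carcass S10 (0.0130%) was above female carcass S8 (0.0125%) and S9 (0.0128%). Embryo (6-11 hr) libraries S4 (0.0120%) and S5 (0.0123%) were above testis S16 and male carcass S12, both at 0.0110%. The embryo (0-5 hr) libraries remained lowest, at 0.00869 to 0.00906%.

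Library S7 stood apart within female carcass in these genes. It was the highest of the 3 female carcass libraries in 84 of 120 genes, or 70.0%, against 45.0% of all models, and in 16 of the 17 genes with 20 CPM or more in ovary. The median over the 120 genes was 1.69 CPM in S7, against 0.894 CPM in S8 and 0.971 CPM in S9. S7 exceeded the mean of S8 and S9 by 4.22% of the ovary mean at the median gene, and by 5.39% at the median of the 17 highest genes, where the excess was above 0 in all 17 and ran from 0.971% to 11.5%.

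Of the markers the study names, the *meiosis arrest female 1* homolog TC034053 was 81.3 CPM in S7 against 35.6 and 37.9 CPM in S8 and S9, and the *fizzy* homolog TC001383, high in both gonads, was 18.3 CPM against 5.51 and 5.83 CPM. TC034053 was at 455 to 549 CPM in ovary but higher, at 850 to 1299 CPM, in the embryo libraries. TC001383 was likewise at 165 to 175 CPM in ovary and at 384 to 545 CPM in the embryo libraries. The homologs of *loco* (TC009818) and *quail* (TC013108), also given as ovary markers, were not highest in S7, and both were higher in every female carcass library than in every ovary library. *loco* was at 82.0 to 98.6 CPM in ovary, against 184 to 221 CPM in female carcass, and *quail* at 27.6 to 28.4 CPM in ovary, against 54.8 to 67.7 CPM in female carcass. None of these 4 markers was at 0 in any library. Markers of testis were also highest in S7, with 3.75 CPM against 1.24 and 1.78 CPM for TC009035. TC006703 was at 1.85 CPM against 0.497 and 0.682 CPM, and TC032055 at 1.69 CPM against 1.44 and 1.15 CPM. Of the embryo markers, TC005375 was highest in S7 (11.3 CPM against 2.63 and 1.26 CPM), whereas TC032769 and TC015380 were not. The part of all these markers in the result was not tested.

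The 2 testis libraries also differed in these genes, and with only 2 neither can be named as the one that stands apart. S17 exceeded S16 in 98 of 120 genes, or 81.7%, against 48.9% of all models, and in 16 of the 17 highest genes. The medians were 1.98 CPM in S17 and 0.706 CPM in S16. The testis markers were lower in S17 than in S16, with 4347 and 4791 CPM for the beta-tubulin TC009035, 540.3 and 1437 CPM for TC032055 and 804 and 1060 CPM for the *Rad50* homolog TC006703. TC034053 was 62.1 CPM in S17 and 33.7 CPM in S16, and TC001383 was 119.7 and 167 CPM. The *loco* and *quail* homologs differed little, at 56.9 and 56.1 CPM and at 14.2 and 12.6 CPM. Of the carcass markers, the *flightin* homolog TC010476 was 13.8 and 7.65 CPM, and the *henna* homolog TC000087 was 43.2 and 41.0 CPM. The embryo markers TC032769 (5.74 and 2.00 CPM) and TC005375 (3.21 and 0.942 CPM) were higher in S17, but TC015380 (29.7 and 61.1 CPM) was lower. The part of these markers in the result was not tested.

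Without S7 and S17, a choice made after the data were seen, the group highest outside the ovary was testis for 41 genes, female carcass for 38, embryo (0-5 hr) for 12, embryo (6-11 hr) for 16 and male carcass for 13. The number of genes with a ratio of 10 or more was then 39, against 31 with all libraries, and the median ratio was 5.57. The median level in testis was 7.22% of ovary in S16 alone and 16.7% in S17 alone, and that in female carcass was 9.53% without S7. With all other libraries kept, testis was highest outside the ovary for 37 genes without S17 and for 64 without S16.

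**Figure D4:**
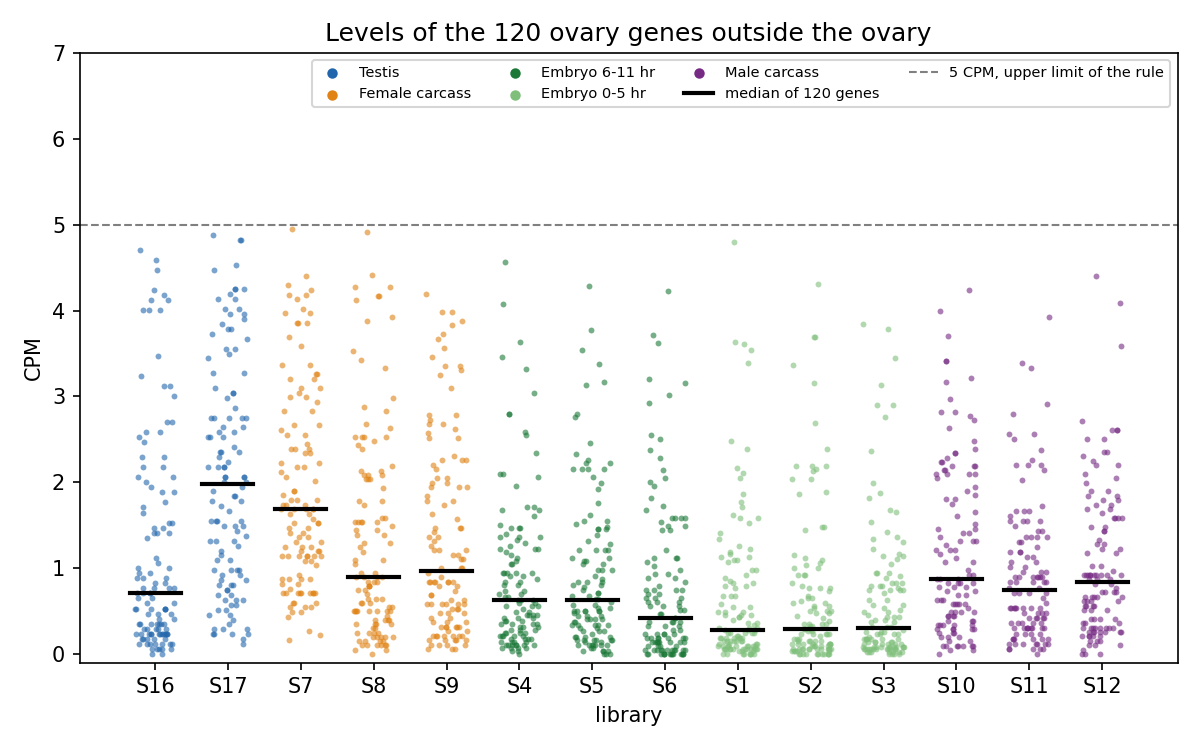
CPM of each of the 120 genes (points, spread sideways to be seen) in the 14 libraries outside the ovary, with the median of the 120 genes as a black bar and the upper limit of 5 CPM as a dashed line. The medians are 1.98 CPM in S17 and 1.69 CPM in S7, and the other libraries have medians between 0.275 and 0.971 CPM.

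The 2 genes with the highest mean in each group outside the ovary were 9 genes in all, since TC005165 was among them in both carcasses. In testis they were those of TC002931, with 4.71 and 4.82 CPM, and of TC016199, with 3.47 and 4.88 CPM. TC016199 had 5.42, 5.05 and 5.49 CPM in ovary, so that its testis mean was 78.4% of its ovary mean. In female carcass they were those of TC005165 (3.97, 4.92 and 3.99 CPM) and TC033261 (4.40, 4.27 and 3.57 CPM). The highest in embryo (6-11 hr) were TC010028 (4.08, 4.28 and 3.02 CPM) and TC002971 (4.57, 3.78 and 2.05 CPM), and in embryo (0-5 hr) TC004673 (4.80, 4.31 and 3.84 CPM) and TC005325 (3.61, 3.69 and 3.79 CPM). The highest in male carcass were TC003478 (3.99, 3.33 and 3.58 CPM) and TC005165 (3.70, 2.38 and 4.09 CPM).

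The rule capped every group other than ovary at 5 CPM but did not compare these groups with each other, so 4 comparisons among them were tested. The test was limma on log2(CPM + 1), fitted to all 17 libraries and 12152 models with 5 CPM or more in at least 3 libraries. Calls required a Benjamini-Hochberg adjusted p under 0.01 over all models tested, together with a log2 fold change at or beyond 1 in either direction. All 120 genes passed the filter, which they did through the ovary libraries by the rule itself. Fold changes are on the log2(CPM + 1) scale, which understates the change of genes at these levels. The shares given for all models also cover genes without this cap of 5 CPM. A lower share called among the 120 genes is therefore not read as a result about them.

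Within the embryo, which addresses change over the first hours of development, 2 of the 120 genes rose in embryo (6-11 hr) relative to embryo (0-5 hr), or 1.67%, and none fell. Among all models 2.03% rose and 2.11% fell. These shares depended on 1 library, since without S6 they were 6.43% and 1.6%, while the 2 calls among the 120 genes were kept. S6 was the lowest embryo (6-11 hr) library in 51.9% of all models and in 78 of the 120 genes. The embryo marker TC005375 was at 78.4, 82.6 and 6.79 CPM in S4, S5 and S6. TC014170 had 3.04, 3.14 and 1.07 CPM in embryo (6-11 hr), against 0.183, 0.177 and 0.171 CPM in embryo (0-5 hr). The groups did not overlap, and S6 was the lowest of the later libraries. The log2 fold change was 1.47 (SE 0.32, limma adjusted p = 0.0046), and the call was lost without any 1 of the embryo libraries other than S6.

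TC002971 had 4.57, 3.78 and 2.05 CPM in embryo (6-11 hr), against 0.795, 0.266 and 0.740 CPM in embryo (0-5 hr), a log2 fold change of 1.45 (SE 0.22, limma adjusted p = 0.000361). Again S6 was the lowest of the later libraries and the groups did not overlap. The ovary values of the same gene were 7.09, 6.59 and 7.38 CPM. The median log2 fold change of the 120 genes was 0.14, and that of all models was 0.14, on the log2(CPM + 1) scale. On reads recovered from the deposited values, where that scale does not compress low levels, the medians fitted by edgeR were 0.63 and 0.19, and 3 of the genes had no read in embryo (0-5 hr). By edgeR's quasi-likelihood test 11 genes were higher and 0 lower, against 6.2% of all models higher and 2.33% lower, or 8.53% called in all.

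Female carcass and male carcass, a comparison of the adult soma of the sexes, gave no call among the 120 genes in either direction by limma, against 0.0658% of all models higher and 5.13% lower in female carcass. At an unadjusted p under 0.05 limma passed 22 genes, against 25.6% of all models. On the recovered reads edgeR called 0 of the 120, against 5.28% of all models, and DESeq2 called 2, against 5.86% of all models. The median log2 fold change was 0.26, against 0.09 for all models (0.54 and 0.09 as fitted by edgeR). With library totals in place of the authors' scaling, the median of all models was -0.06. The 3 female carcass libraries lay above the 3 male carcass libraries in 31 of the 120 genes, against 25.5% of all models.

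The highest ovary gene came close in this comparison. TC031240 had 3.26, 3.92 and 1.15 CPM in female carcass, against 0.487, 0.892 and 0.870 CPM in male carcass, which do not overlap, with a log2 fold change of 1.03 (limma adjusted p = 0.0526). TC013288, named after its values were seen, had 2.45, 2.09 and 2.05 CPM in female carcass, against 1.12, 0.357 and 0.665 CPM in male carcass. It passed the p threshold and missed that of the fold, at a log2 fold change of 0.92 (limma adjusted p = 0.00369). Library S7 is among the female carcass libraries, and without S7 and S17 limma again called none of the 120 genes.

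Testis and male carcass compare the male gonad with the soma of the same sex. Here 19 of the 120 genes (15.8%) were higher in testis and 5 (4.17%) were lower, against 27.5% of all models higher and 30.2% lower. The median log2 fold change was 0.27, against -0.03 for all models (0.66 and -0.03 as fitted by edgeR). TC008627 had 4.59 and 3.73 CPM in testis, against 0.243, 0.119 and 0.205 CPM in male carcass, a log2 fold change of 2.11 (SE 0.19, limma adjusted p = 5.66e-08). The testis libraries lay far above all male carcass libraries, and the gene was at 6.42, 8.03 and 7.45 CPM in ovary.

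TC012015 had 4.47 and 3.27 CPM in testis, against 0.438, 0.238 and 0.665 CPM in male carcass, and TC005258 had 2.71 and 2.87 CPM in testis, against 0.292, 0.297 and 0.205 CPM. Both genes were also above 1 CPM in every embryo (6-11 hr) library. The log2 fold changes were 1.75 and 1.58 (limma adjusted p = 8.30e-06 and 1.74e-05). TC010218 (1.52), TC033491 (1.50), TC002266 (1.43), TC032007 (1.37), TC016154 (1.36), TC010220 (1.35) and TC008360 (1.26) made up the 10 largest log2 fold changes, and the other 9 were between 1.01 and 1.21. In each of the 19 genes both testis libraries lay above all male carcass libraries, which describes genes already called and is no separate support. For TC008360 the testis values were 0.353 CPM in S16 and 4.25 CPM in S17, and its log2 fold change was 0.28 (limma adjusted p = 0.27) without S17, which leaves 1 testis library, so that the spread comes from the other groups.

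The 5 genes lower in testis had log2 fold changes of -1.20 for TC005165, -1.16 for TC007539, -1.13 for TC002971, -1.09 for TC004815 and -1.08 for TC011332. TC005165 had 0.706 and 1.09 CPM in testis, against 3.70, 2.38 and 4.09 CPM in male carcass, and its female carcass values of 3.97, 4.92 and 3.99 CPM overlapped those of male carcass. In each of the 5 genes both testis libraries lay below all male carcass libraries, again a description of genes already called. Without S17, limma called 13 genes higher and 11 lower in testis, against 29% of all models higher and 31.5% lower. Without S16 it called 33 higher and 2 lower, against 25.7% and 26.8% of all models. Testis then rests on 1 library, which the fit assumes to vary like those of the other groups. On the recovered reads edgeR called 35 of the 120 genes, against 58% of all models. The testis marker TC009035 was at 124 to 329 CPM in male carcass, against 1.24 to 3.75 CPM in female carcass, and its part in this comparison was not tested.

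Embryo (0-5 hr) and male carcass compare the egg's RNA with a soma that holds no ovary. In this comparison 5 of the 120 genes (4.17%) were higher in embryo (0-5 hr) and 19 (15.8%) were lower, against 27.5% of all models higher and 39.3% lower. The median log2 fold change was -0.40, against -0.15 for all models (-1.41 and -0.17 as fitted by edgeR). On the recovered reads edgeR called 69 of the 120 genes, against 69.2% of all models. With library totals in place of the authors' scaling, 8 were higher and 14 lower, against 35% of all models higher and 36.2% lower, and the median of all models was 0.18.

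TC004673 had 4.80, 4.31 and 3.84 CPM in embryo (0-5 hr), against 0.779, 0.416 and 0.512 CPM in male carcass, a log2 fold change of 1.76 (SE 0.29, limma adjusted p = 4.08e-05). Its ovary values were 10.8, 10.6 and 9.35 CPM, so that about 42.1% of the ovary level was found in the early embryo. TC034605 had 3.54, 3.69 and 2.76 CPM in embryo (0-5 hr), against 0.584, 0.773 and 0.358 CPM in male carcass, a log2 fold change of 1.46. TC004805 had 1.59, 1.89 and 1.68 CPM in embryo (0-5 hr), against 0.0973, 0.0595 and 0.0512 CPM in male carcass, a log2 fold change of 1.35. TC004805 was also low in female carcass and testis, where no library exceeded 0.163 CPM.

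TC010555 and TC004682 were the other genes higher in embryo (0-5 hr), at log2 fold changes of 1.26 and 1.16. Their calls were the least stable, since that of TC010555 (limma adjusted p = 0.00757) was lost without any 1 of 10 libraries and that of TC004682 without S1, S3, S10 or S12.

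The genes lower in embryo (0-5 hr) were led by TC004904, with 0.0611, 0.118 and 0.0569 CPM in embryo (0-5 hr), against 2.63, 2.80 and 2.71 CPM in male carcass, a log2 fold change of -1.78 (SE 0.32, limma adjusted p = 9.43e-05). TC008471 had 0.0306, 0.0591 and 0.0285 CPM in embryo (0-5 hr), against 4.23, 0.357 and 4.40 CPM in male carcass, and its log2 fold change was -1.70, with S11 far under S10 and S12. TC011332 (-1.59), TC010713 (-1.49), TC011153 (-1.48), TC033261 (-1.48), TC010201 (-1.42), TC032937 (-1.42), TC010834 (-1.39) and TC009732 (-1.35) followed by log2 fold change. The 9 others lay between -1.01 and -1.29. All 19 had ovary levels over 5 CPM by the rule, and their early embryo means were 1.22 CPM or less.

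**Figure D5:**
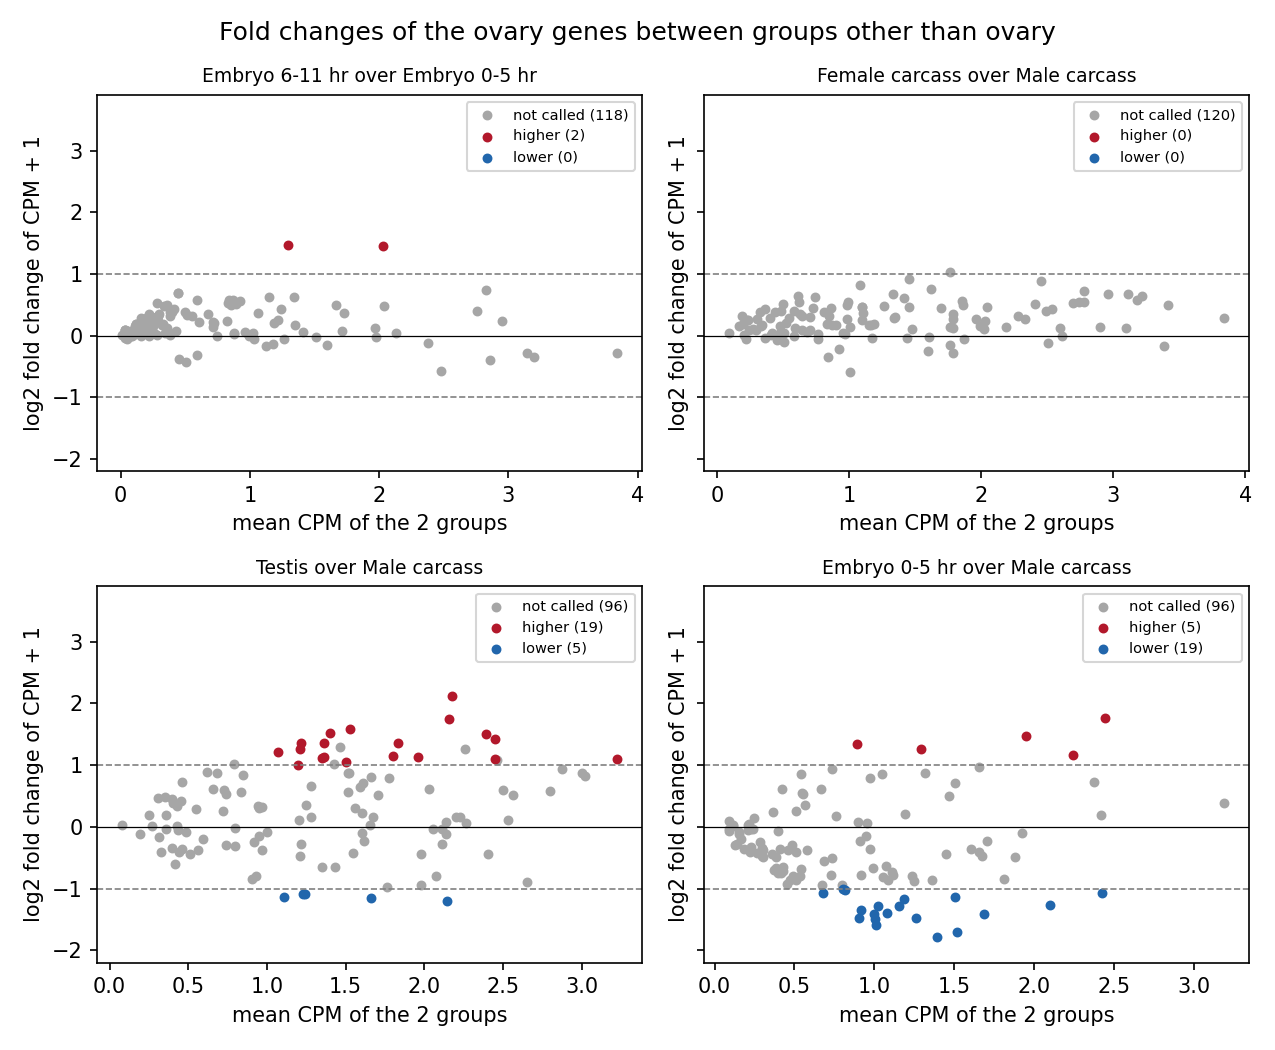
Log2 fold change of CPM + 1 (y axis) against the mean CPM of the 2 groups compared (x axis) for the 120 genes in each of the 4 comparisons, with called genes in red (higher) and blue (lower) and dashed lines at log2 fold changes of 1 and -1. The calls number 2 in the embryo, 0 between the carcasses, 24 between testis and male carcass and 24 between embryo (0-5 hr) and male carcass.

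Some of the ovary genes carry consecutive gene numbers in the deposited table, which numbers every model. There were 10 such runs, 2 of 3 genes and 8 of 2 genes, with 22 genes in all. The positions behind these numbers are not known here, and reads from overlapping models cannot be told apart in counts that do not use strand. The run TC006225, TC005927 and TC006226 was lowest in the same ovary library, with 9.37, 8.94 and 5.52 CPM, 10.2, 12.3 and 5.03 CPM, and 15.9, 16.2 and 7.76 CPM in S13, S14 and S15. All 3 genes were thus lower in S15, whereas S15 was the highest ovary library for most of the 120 genes.

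The run TC031818, TC016035 and TC031819 held 1 of the 17 highest genes, with ovary means of 47.3, 13.1 and 17.2 CPM. The pair TC004787 and TC031554 was raised in the same embryo libraries. TC004787 had 1.47, 1.32 and 2.51 CPM in embryo (6-11 hr) and 1.16, 2.69 and 1.14 CPM in embryo (0-5 hr), and TC031554 had 0.733, 0.809 and 2.14 CPM in embryo (6-11 hr) and 0.856, 2.19 and 0.883 CPM in embryo (0-5 hr). S6 and S2 were the highest libraries of their groups for both genes.

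TC011332 and TC011153 had nearly equal numbers of reads, 269 and 261 in S13, 262 and 233 in S14, and 171 and 152 in S15. Neither had a read in embryo (0-5 hr), and female carcass held 200 and 174 reads, but testis held 15 and 31 reads. Their values may still not be separate measurements, which was not tested. In 3 pairs both genes were called higher in testis than in male carcass, namely TC031488 and TC016054, TC016155 and TC016154, and TC004509 and TC032007. These pairs hold 6 of the 19 genes so called. Other genes of the list, such as TC010218 and TC010220, had close but not consecutive numbers.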

How the data were processed

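Poly(A) RNA was sequenced as unpaired reads. Following the submitters' notes and the paper, the authors aligned reads with HISAT2 2.0.5 to Tcas5.2, used BEDTools for counting over gene models, and adjusted library sizes by the TMM method of edgeR. The deposited signal is thus the authors' scaled CPM, per gene model and library. All 12302 models had 5 CPM or more in at least 3 libraries before TMM scaling, and 12152 after it. Dividing by the smallest value above 0 of each library gave whole reads, within 0.01 read, for 100% of 209134 values. Of the models, 7 had no TC identifier and 13 identifiers stood on 2 models each. Of 12282 TC identifiers, 1 matched the RefSeq table of 15518 genes.

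The genes were chosen by the rule of 5 CPM. The genes and gene lists were chosen with earlier results of these data known. Named were the 20 genes with the highest ovary mean, the genes called in each comparison (at most 10 each way), the 2 highest in each group, those nearest the threshold, the extremes of spread, consecutive gene numbers and the study's markers. Tests used limma 3.58.1 (trend, robust) on log2(CPM + 1), two-sided, in R 4.3.3, over 12152 models. The unit of replication was the library. Depth was 18664366 to 34847471 reads, and floors cover counting error only. The test was checked on simulated data.

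The deposited CPM are not counts, so limma was the main test. edgeR 4.0.16 and DESeq2 1.42.0 were run on the recovered reads as alternatives. edgeR called 1037, 642, 7048 and 8404 of the models in the comparisons of the embryo stages, the carcasses, testis with male carcass and embryo (0-5 hr) with male carcass. Other alternatives were pseudocounts of 0.1 and 5 in place of 1, library totals, RLE factors, no filter, only the groups compared, an adjusted p of 0.05, other CPM thresholds and each library left out in turn. Leaving out S7 and S17 together was chosen after the data were seen. Summaries used Python 3.11.15, pandas 2.3.3 and matplotlib 3.10.9. Sequences, positions and functions of the genes were not analysed here.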

Additional observations from a re-analysis of the deposited data

How the results depend on the processing

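The size of the set depends on its threshold and scale. It held 12 genes at 1 CPM, 34 at 2 CPM, 92 at 10 CPM and 112 with RLE factors, and 203 with library totals, of which 119 were among the 120. Leaving out a library gave 120 to 168 genes, with 168 without S17 and 123 without S16.

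Calls among the 120 genes moved with the pseudocount and with the test. With a pseudocount of 5 there could be no call, since genes under 5 CPM in both groups cannot reach a log2 fold change of 1. In the embryo stages 2 calls became 6 with a pseudocount of 0.1, 0 with 5, 11 by edgeR and 14 by DESeq2, and 1 to 2 without a library. In testis against male carcass 24 calls became 35 with 0.1, 0 with 5, 35 by edgeR and 42 by DESeq2, and 22 to 35 without a library. In embryo (0-5 hr) against male carcass 24 calls became 65 with 0.1, 0 with 5, 69 by edgeR and 75 by DESeq2, and 19 to 24 without a library. Between the carcasses 0 calls became 2 by DESeq2, and 0 to 1 without a library, with 1 without S9 or S10.

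Kept without each library in turn were 1 of 2, 13 of 24 and 16 of 24 calls in the embryo stages, testis against male carcass and embryo (0-5 hr) against male carcass. No call of a gene changed direction. Without S7 and S17 together limma called 25 genes in testis against male carcass, 18 of them among the 24. No paired analysis was possible because the libraries are numbered through the whole series and no number is shared between groups. Groups of 2 or 3 libraries, and values of a few reads, limit precision at these levels.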
